A study of Homo sapiens with 4 samples.

Results

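The enzymes that carry out the late steps of cholesterol synthesis after squalene were examined in NUDUL1, a human cell line of the germinal center B cell-like type of diffuse large B cell lymphoma. The members are LSS, CYP51A1, TM7SF2, NSDHL, HSD17B7, EBP, SC5DL (current symbol SC5D) and DHCR7. Each was found by its symbol as 1 row of the deposited table, giving 8 of 25066 genes. They were chosen by their role and by their log2 differences between genotypes, since DHCR7 and SC5DL were lower than control while most of the sterol pathway was higher. Their differences are therefore given as a description without a test, and p values are given only for other genes.

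All cells carried doxycycline-inducible Cas9 from a line selected as a single-cell clone and were transduced with the thromboxane receptor Tbxa2r, which couples to Gα13. Control cells expressed a control sgRNA and GNA13-deficient cells expressed an sgRNA against GNA13, with 1 sgRNA per genotype. Both genotypes received 10 nM U46619, a stable thromboxane-A2 analog that stimulates Gα13, for 24 h. There were 2 libraries per genotype and no untreated cells, and no source states that the replicates came from separate transductions, so p values measure only the spread between these libraries.

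Total mapped reads were between 29209544 and 31537955 per library. GNA13 itself had log2 values of 12.46 and 12.45 in control and 13.10 and 13.11 in GNA13-deficient libraries. Its mRNA was not lower in the libraries labelled GNA13-deficient, so all directions given here follow the labels and not this gene. All 8 B cell markers checked (among them MS4A1, CD79A, CD79B, PAX5, CD22, BCL6 and MME) had log2 values from 8.23 to 14.33. Of 12 markers of other cell types, 4 were listed at 0 in every library, the T cell genes CD3D and CD3E among them, and the summed reads of all 12 were 178 to 190 in control and 131 to 139 in GNA13-deficient libraries. Their part in the differences was not tested.

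Cholesterol is built from acetyl-CoA through mevalonate to squalene, which is oxidized and closed into the first sterol, lanosterol. The late enzymes of the endoplasmic reticulum then strip methyl groups from lanosterol, move and remove double bonds, and leave cholesterol. When membrane sterol is low, the SREBP transcription factors leave the endoplasmic reticulum and activate most genes of the pathway, with NF-Y and SP1 as usual partners at their promoters.

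Because the late enzymes did not all move one way, promoters of 4 of them are shown, those of the most reduced pair and of a pair that was higher. Sequences are from RefSeq (GRCh38.p14) and cover 250 bases before to 50 after the annotated start, in the direction of the gene. All 8 members matched the promoter table, with 10 entries, since DHCR7 and SC5DL have more than one start. Capitals mark the NF-Y box, CCAAT or its reverse complement ATTGG. The DHCR7 window is chr11:71448344-71448643 on the minus strand, that of SC5DL chr11:121292521-121292820 on the plus strand, that of EBP chrX:48521558-48521857 on the plus strand and that of NSDHL chrX:152830813-152831112 on the plus strand.
DHCR7: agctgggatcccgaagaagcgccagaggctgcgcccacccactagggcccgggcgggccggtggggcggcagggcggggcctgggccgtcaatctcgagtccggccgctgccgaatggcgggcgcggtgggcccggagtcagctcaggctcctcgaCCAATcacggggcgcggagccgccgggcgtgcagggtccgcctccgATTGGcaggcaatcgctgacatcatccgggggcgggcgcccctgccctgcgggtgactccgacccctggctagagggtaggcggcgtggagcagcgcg
SC5DL: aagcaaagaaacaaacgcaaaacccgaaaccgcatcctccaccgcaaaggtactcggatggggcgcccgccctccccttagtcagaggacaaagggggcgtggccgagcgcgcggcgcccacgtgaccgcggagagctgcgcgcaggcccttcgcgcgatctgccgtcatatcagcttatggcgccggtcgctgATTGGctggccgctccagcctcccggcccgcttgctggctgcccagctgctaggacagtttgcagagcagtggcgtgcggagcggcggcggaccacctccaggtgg
EBP: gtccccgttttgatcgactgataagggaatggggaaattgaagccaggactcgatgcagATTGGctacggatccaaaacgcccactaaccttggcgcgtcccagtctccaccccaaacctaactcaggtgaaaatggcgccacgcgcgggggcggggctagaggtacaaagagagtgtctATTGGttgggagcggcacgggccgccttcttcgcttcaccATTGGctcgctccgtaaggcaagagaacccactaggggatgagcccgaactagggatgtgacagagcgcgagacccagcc
NSDHL: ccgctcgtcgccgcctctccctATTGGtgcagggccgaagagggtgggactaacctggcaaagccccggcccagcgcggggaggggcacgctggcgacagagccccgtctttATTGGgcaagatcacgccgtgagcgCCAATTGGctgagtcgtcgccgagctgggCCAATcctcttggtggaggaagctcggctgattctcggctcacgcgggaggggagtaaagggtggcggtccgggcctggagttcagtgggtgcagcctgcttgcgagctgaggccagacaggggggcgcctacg

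An NF-Y box was present in a promoter window of 7 of the 8 members and in 34.6% of the 35116 promoter windows of the table. Here and for the other motifs, members are counted as genes over 10 windows but the table as single windows. These measures are therefore not alike. CYP51A1 was the member without one. NSDHL had 5 NF-Y boxes, of which one pair overlapped on opposite strands, EBP had 3, and DHCR7 had 2 at its first listed start and none at the other. Each SC5DL start had 1, which is the same box seen from both starts. The SP1 box GGGCGG was found for 7 members, all but NSDHL, and in 45.0% of all windows. LSS held 7 of these, 5 of them between 75 and 38 bases before the start. The E-box CACGTG was found for LSS and SC5DL, and in 7.26% of all windows. A sterol regulatory element spelled TCACNCCAC was found for none of the 8 members and in 1.13% of all windows. All motifs were searched on both strands. NF-Y and SP1 boxes were thus present both in members that were higher and in members that were lower, and an absent match says only that these letters are not in the window.

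**Figure D1:**
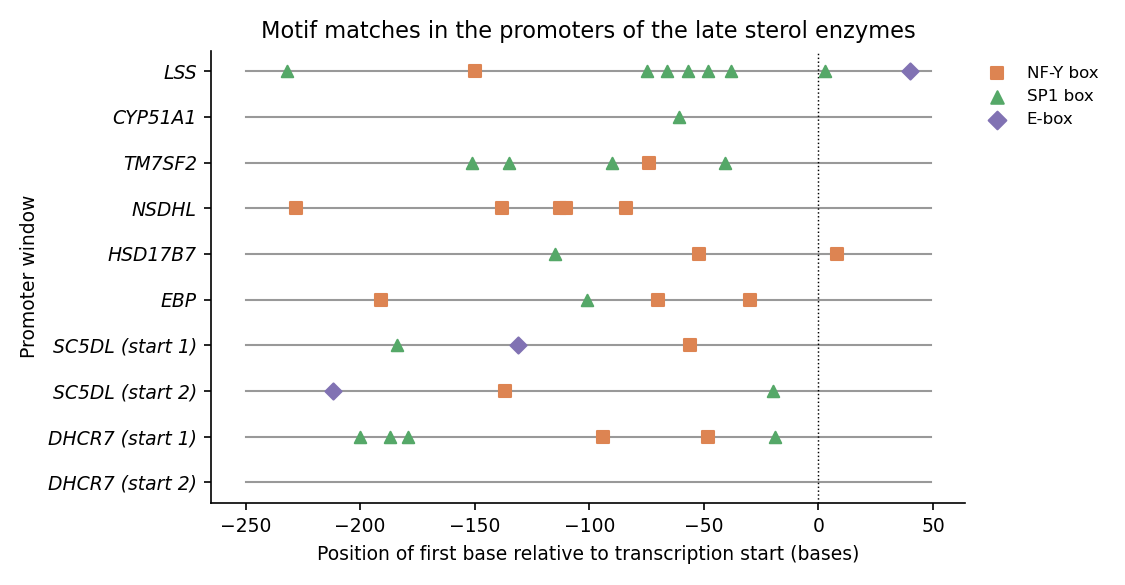
Positions of motif matches in the 10 promoter windows of the 8 late sterol enzymes, in bases from the annotated start (dotted line). Squares are NF-Y boxes, triangles SP1 boxes and diamonds E-boxes; CYP51A1 and the second start of DHCR7 have no NF-Y box.

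DHCR7 catalyzes a final reduction of the sterol ring that yields cholesterol, and its substrate is also the precursor of vitamin D. Its log2 values were 9.29 and 9.48 in control and 6.17 and 6.50 in GNA13-deficient libraries. The reads behind these values were 615 and 726 in control against 70 and 84. Both GNA13-deficient libraries lay far below both control libraries, with a gap of 2.79 between the genotypes and 0.33 as the larger difference between replicates. The mean difference was -3.05 on the log2 scale, an 8.30-fold lower level. Of the 16945 genes tested, 416 had a more negative difference, and among the 6599 with a control mean at least as high as that of DHCR7, 32 did. DHCR7 was chosen by this difference and the cut was set at its own control mean, so these ranks only describe it. The libraries are bulk, so a lower level in every cell and loss from some of the cells cannot be told apart.

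SC5DL introduces a ring double bond that stays in cholesterol, and DHCR7 then reduces a different one, so the pair act one after the other. Its log2 values were 9.72 and 9.72 in control and 8.65 and 8.48 in GNA13-deficient libraries, from 828 and 859 reads against 391 and 332. The genotypes did not overlap, and control replicates differed by far less than GNA13-deficient replicates. The mean difference was -1.16, a 2.23-fold lower level, with a gap 6.38 times the larger difference between replicates.

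TM7SF2 is a sterol reductase that acts on the product of CYP51A1. Its log2 values were 10.42 and 10.47 in control and 10.14 and 10.19 in GNA13-deficient libraries. The difference of -0.28 was the smallest in size of the 8, and the genotypes were still apart by 4.09 times the larger replicate difference. With each library centred on its median, the difference was -0.07 while the median of all genes tested moved from -0.02 to 0.18.

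EBP, the isomerase that moves the ring double bond before SC5DL acts, was the member with the highest difference. Its log2 values were 11.24 and 11.28 in control and 12.30 and 12.41 in GNA13-deficient libraries. The mean difference was 1.10, a ratio of 2.14 on the linear scale. EBP was higher by about the amount by which SC5DL, the next enzyme, was lower.

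NSDHL and HSD17B7 work with SC4MOL to remove methyl groups from the sterol ring. NSDHL had log2 values of 10.49 and 10.59 in control and 11.15 and 11.27 in GNA13-deficient libraries, a difference of 0.67. HSD17B7 had 8.82 and 8.77 in control and 9.40 and 9.44 in GNA13-deficient libraries, a difference of 0.63. The gap for HSD17B7 was 10.8 times the larger replicate difference, the widest ratio of the 8. HSD17B7 has a near copy, the pseudogene HSD17B7P2, with log2 values of 6.13 and 5.19 in control and 5.65 and 4.75 in GNA13-deficient libraries. Reads could be split between the copies by the authors' counting, so the level of HSD17B7 is uncertain.

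LSS closes the oxidized squalene into lanosterol, and CYP51A1 is the cytochrome P450 that starts the removal of its methyl groups. LSS had log2 values of 11.84 and 11.87 in control and 12.13 and 12.18 in GNA13-deficient libraries, a difference of 0.31. CYP51A1 had 11.81 and 11.96 in control and 12.17 and 12.22 in GNA13-deficient libraries, also a difference of 0.31. Both genes stood higher without overlap, but CYP51A1 had the smallest gap relative to its replicates, at 1.40 times the larger replicate difference. CYP51A1 and EBP are overlapped in exons by protein-coding genes on the same strand, so some of their reads may be shared. LSS is overlapped in exons by long noncoding RNA genes on the opposite strand, where sharing would depend on counting by strand. GENCODE annotates all of these overlapping genes, and none has a row of its own in the table.

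In all, 5 members were higher and 3 lower, and none of the 8 overlapped between genotypes. Across the genes tested, 65.3% did not overlap between genotypes, 31.3% being higher and 34.0% lower. All 8 members passed the filter on low values in both genotypes, with 70 to 5073 reads per library. The median difference was 0.31 over the members and -0.02 over the 16945 genes. The 5 to 3 split was the same under quantile normalization, median centring and added pseudocounts, and with each library left out.

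**Figure D2:**
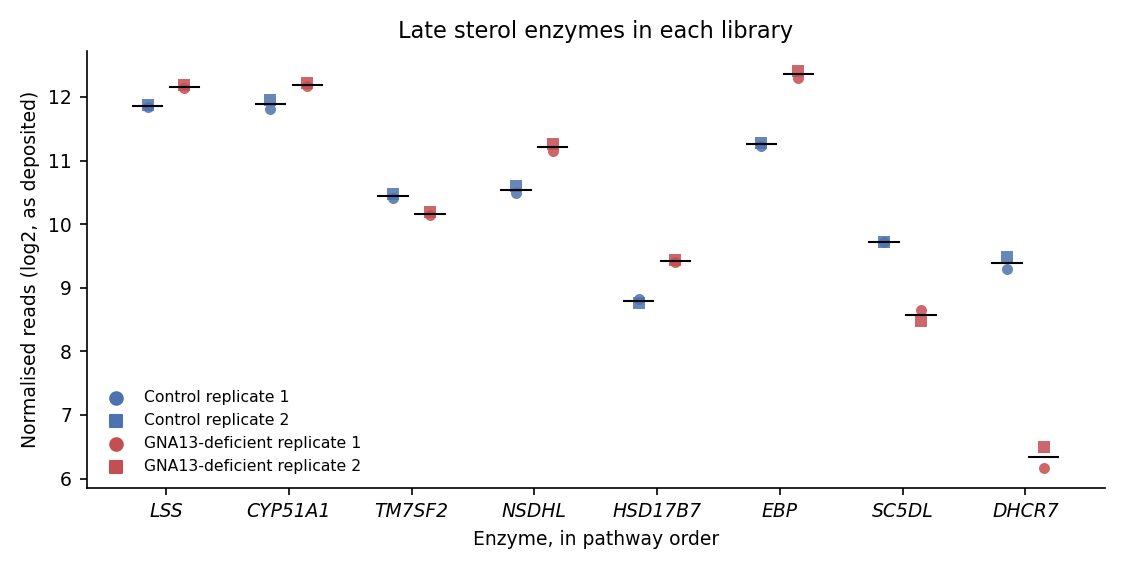
Deposited log2 normalised reads of each late sterol enzyme in the 4 libraries, with a line at each genotype mean. EBP reaches 12.41 in a GNA13-deficient library, while DHCR7 lies at 9.29 and 9.48 in control and at 6.17 and 6.50 in GNA13-deficient libraries.

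Levels were compared between the enzymes per kilobase of the canonical GENCODE transcript, in normalised reads on the linear scale. In control libraries EBP was the highest, at 2142 and 2212, followed by CYP51A1 at 1139 and 1262, TM7SF2 at 865 and 899, NSDHL at 782 and 842, and LSS at 750 and 764. HSD17B7 (296 and 285), DHCR7 (238 and 272) and SC5DL (123 and 123) were the lowest. No neighbours in this order shared a range between libraries. The order from TM7SF2 to LSS, and from HSD17B7 to DHCR7, did change when all annotated exons set the length, so those steps depend on the transcript more than on the replicates.

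In GNA13-deficient libraries DHCR7 was the lowest member, at 27.3 and 34.4, below SC5DL at 58.5 and 52.1. EBP was again the highest, at 4486 and 4851. DHCR7 and SC5DL were last in both genotypes with canonical lengths, and their order with each other was reversed between genotypes. LBR, an inner nuclear membrane protein with the same reductase activity as TM7SF2, stood at 1928 and 1883 in control and 2685 and 2706 in GNA13-deficient libraries, above TM7SF2 in every library.

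**Figure D3:**
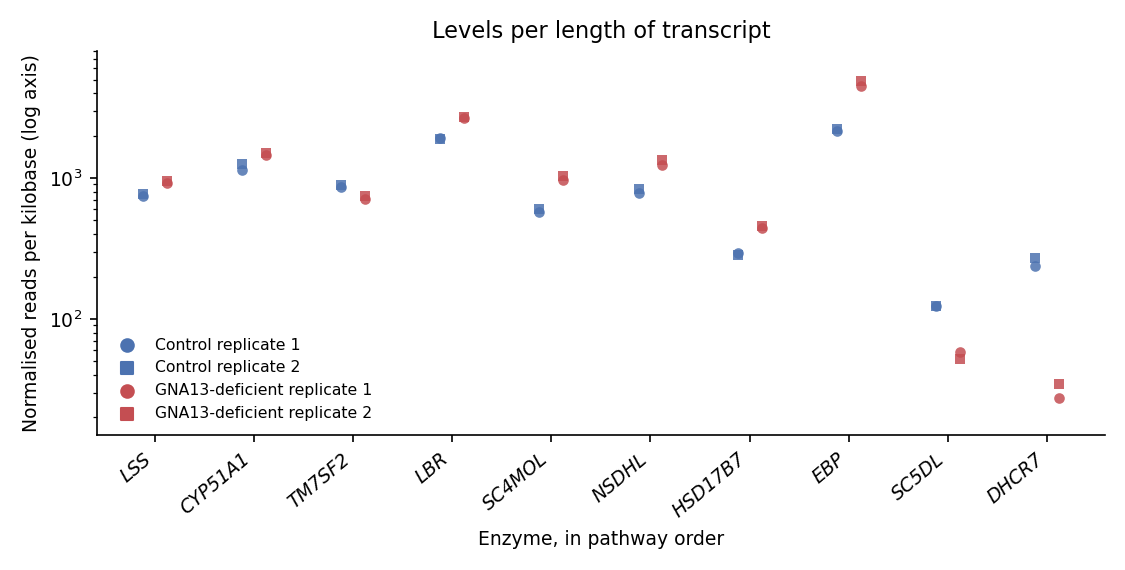
Normalised reads per kilobase of canonical transcript (log axis) for the 8 members and for LBR and SC4MOL, in each library. DHCR7 is at 238 and 272 in control and at 27.3 and 34.4 in GNA13-deficient libraries, while LBR and EBP are higher in the latter.

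The rest of the pathway was tested with limma over all genes, in which 29.7% of the 16945 genes passed an adjusted p of 0.05, 13.1% being higher and 16.6% lower. That most of the pathway was higher was known when the members were chosen. Calls in its lists therefore describe a known pattern and are not separate evidence for it. Of 7 other genes of the late steps, 4 rose, none fell and 3 did not pass. SC4MOL, which acts with NSDHL and HSD17B7, rose by 0.78 (standard error 0.06, adjusted p = 0.00234 from limma). C14orf1, a scaffold protein of that methyl-removing complex, rose by 0.66 and LBR by 0.50. C14orf1 no longer passed without the filter on low values or without a variance trend. The EBP relative EBPL (-0.28), HSD17B7P2 (-0.46) and C5orf4 (0.36) did not pass. EBP, the enzyme before SC5DL in the pathway, and the tested enzymes SC4MOL and LBR were thus higher in GNA13-deficient libraries, in contrast to SC5DL and DHCR7.

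Of 11 genes of the mevalonate and squalene steps, 10 rose, against 13.1% of all genes tested. This rise was part of the choice of members, so the count is a description. The median difference over the list was 0.76. HMGCS1, which makes HMG-CoA, rose by 1.24, the mevalonate kinase MVK by 1.07 and ACAT2, which joins acetyl-CoA units, by 1.00. SQLE, which makes the epoxide used by LSS, rose by 0.62. GGPS1, which leads to geranylgeranyl groups and not to sterols, was the remaining gene at -0.15 (adjusted p = 0.395 from limma). With any library left out, 1 residual degree of freedom remained and limma called 0 of 16945 genes, with 5257 to 5600 at an unadjusted p under 0.05. Every call named in the text is lost in that way, as is every other call. The calls thus need all 4 libraries, and these fits say nothing about their stability.

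**Figure D4:**
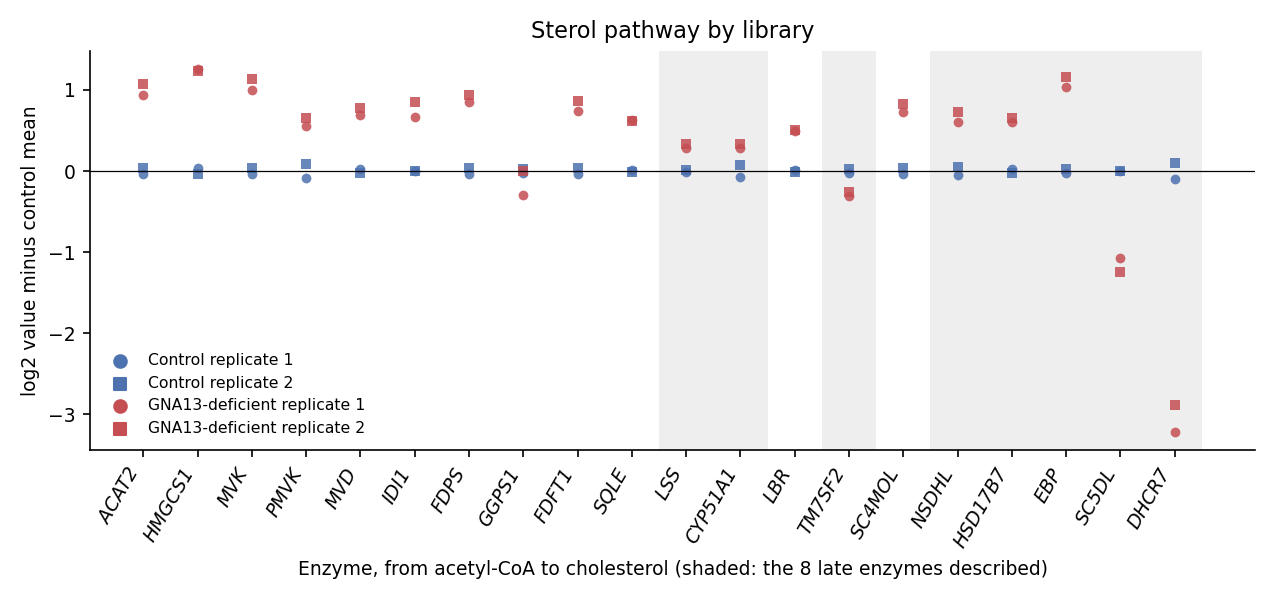
Each library's log2 value minus the control mean for enzymes from acetyl-CoA to cholesterol, with the 8 late enzymes shaded. GNA13-deficient libraries lie above control at most steps, whereas SC5DL (-1.16) and DHCR7 (-3.05) lie below and TM7SF2 slightly below (-0.28).

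Of 15 genes of SREBP control and its targets, 14 were tested. Of these, 6 rose and 2 fell, against 13.1% and 16.6% of all genes tested. This list was also chosen with earlier results known, so its counts are a description. SREBF1 rose by 0.89 and SREBF2, which drives sterol genes, by 0.27 (adjusted p = 0.0246 from limma). INSIG1, which holds SREBP back when sterol is present, rose by 0.62 and the sterol carrier STARD4 by 0.54. The SREBP protease MBTPS1 fell by 0.45. DHCR7 and SC5DL were both lower in libraries in which these sterol-responsive genes were higher. Without the filter on low values or without a variance trend, SREBF2 and MBTPS1 no longer passed, SREBF1 and STARD4 also did not pass without the filter, and the list had 4 calls in each case.

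Of 15 tested genes for the fates and export of sterols, 3 were higher and 3 lower, against 13.1% and 16.6% of all genes tested. Whether this list differs from all genes was not tested. The sterol exporters ABCG1 and ABCA1 fell by 1.56 and 1.38 (adjusted p = 0.0122 and 0.0183 from limma), and MYLIP, a ubiquitin ligase, fell by 0.57. SOAT1, which esterifies cholesterol, rose by 0.51, and GPR183, the oxysterol receptor of B cells, by 0.52. CH25H and CYP7B1, enzymes that make the oxysterol ligand of that receptor, were listed at 0 in every library. The falls of ABCG1, ABCA1 and MYLIP no longer passed without the filter on low values or without a variance trend. SOAT1 and GPR183 passed in both.

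The members lie on 5 chromosomes (GRCh37, the same assembly as hg19, with GENCODE annotation), and the 3 that were lower in GNA13-deficient libraries are all on chromosome 11. TM7SF2 spans chr11:64879317-64883856 on the plus strand, DHCR7 chr11:71139239-71163914 on the minus strand and SC5DL chr11:121163390-121184119 on the plus strand. The members that were higher are HSD17B7 at chr1:162760492-162782613, CYP51A1 at chr7:91714301-91764117, LSS at chr21:47608055-47648738, EBP at chrX:48380187-48387104 and NSDHL at chrX:151999511-152038273. Because the members' neighbours were not part of the grouping, their differences could be tested.

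Of 32 neighbouring protein-coding genes, the nearest pair on each side of every member, 25 were tested. TECTA and DDR2 passed the filter on low values through 1 genotype alone and were set aside, and of the other 23, 3 rose and 8 fell at an adjusted p below 0.05, against 13.1% and 16.6% of all genes tested. The neighbours of SC5DL were among the largest of these changes. SORL1, a sorting receptor that lies 138904 bases beyond SC5DL, had log2 values of 10.17 and 10.37 in control and 7.06 and 7.27 in GNA13-deficient libraries, with a difference of -3.10 (standard error 0.12, limma adjusted p = 0.000802). TBCEL, on the other side, fell by 3.59 (standard error 0.26, adjusted p = 0.00182), from 172 and 194 reads to 13 and 16. TECTA, between TBCEL and SC5DL, had 5 and 8 reads in control and 0 in both GNA13-deficient libraries, too few for a fold. BLID, the fourth neighbour, was listed at 0 throughout.

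A window of 1 Mb on each side was added after these values were seen. It held 5 tested genes around SC5DL, and with TECTA set aside the other 4 fell. TMEM136 fell by 2.60, on 27 and 30 reads against 4 and 5, a call that was lost without the filter on low values. ARHGEF12, a RhoGEF that Gα13 can activate, had log2 values of 11.02 and 11.20 in control and 9.15 and 9.05 in GNA13-deficient libraries, and fell by 2.01 (limma adjusted p = 0.000926). SC5DL had a smaller difference than each of these 4. Around DHCR7, 4 of 15 tested genes were lower (26.7%, against 16.6% of all genes tested) and none was higher. CTTN, which encodes the actin-binding protein cortactin and lies 856549 bases away, fell by 3.28 (adjusted p = 0.00125 from limma), from 370 and 380 reads to 42 and 32, and IL18BP fell by 2.74, a call also lost without that filter. NADSYN1, which makes NAD and starts 241 bases from DHCR7 on the opposite strand, fell by 0.55 (adjusted p = 0.00768 from limma), with log2 values of 11.30 and 11.45 against 10.77 and 10.87, and no longer passed without the filter or without a variance trend. NADSYN1, the gene nearest to DHCR7, differed far less than DHCR7 did, whereas CTTN and IL18BP were close to DHCR7 in size. Of the 15 genes, 11 did not pass, some of them on very few reads. Whether the position of DHCR7 bears on its difference was not tested. Around TM7SF2, 24 of 79 tested genes were lower (30.4%) and 7 higher. Without genes that passed the filter through 1 genotype, 23 of 74 were lower.

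Falls were also found around members that were higher. Over all genes tested, 16.6% were lower and 13.1% higher. Around CYP51A1, 6 of 13 tested genes were lower and none was higher, with FZD1 at -3.70, which is a larger share than around DHCR7 or TM7SF2. Around EBP, 6 of 39 were lower (15.4%, below the share of all genes) and 13 higher, and GRIPAP1 stood at -3.70. Around NSDHL and LSS, 3 of 13 and 3 of 12 were lower and 2 were higher in each window, so these shares rest on few genes. Around HSD17B7 none was lower, and 3 of 7 were higher without genes that passed through 1 genotype. Whether these shares differ between members was not tested.

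**Figure D5:**
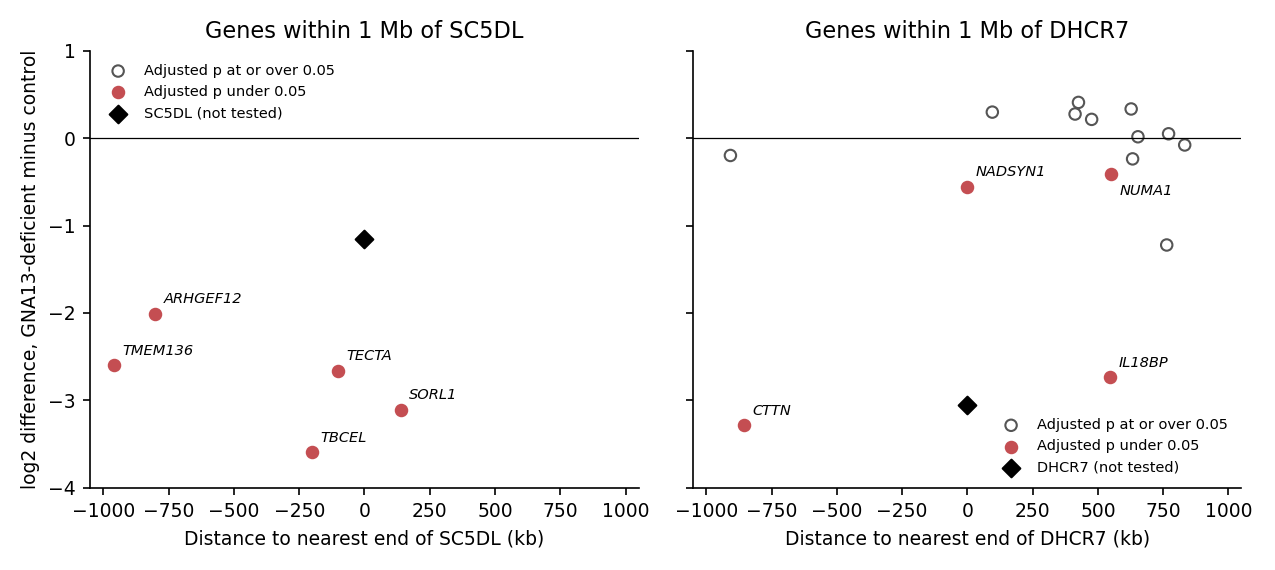
Log2 difference (GNA13-deficient minus control) of tested protein-coding genes within 1 Mb of SC5DL (left) and DHCR7 (right), by distance in kilobases; filled points passed at an adjusted p under 0.05. The 5 genes around SC5DL lie below 0, with TECTA resting on its control reads alone, whereas most genes around DHCR7 lie near 0 and CTTN (-3.28) and IL18BP (-2.74) lie near DHCR7 itself.

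Near the other members, single neighbours differed by 1 or more. ZNF185, next to NSDHL, fell by 2.28 (adjusted p = 0.000802 from limma) although NSDHL was higher, while CETN2, 210 bases from NSDHL on the opposite strand, rose by 0.59 and no longer passed without the filter on low values. DDR2, next to HSD17B7, had 1 and 0 reads in control and 3 and 4 in GNA13-deficient libraries, too few for a fold, and was not called without the filter, with a pseudocount of 1 or 10, or with voom weights. Every tested neighbour of DHCR7, SC5DL and TM7SF2 had a negative difference, though not all passed. The tested neighbours of CYP51A1 and LSS were also all negative, although these members were higher. Of all 25 tested neighbours, with TECTA and DDR2 counted, 19 had a negative difference. The direction of a late sterol enzyme was thus that of the genes beside it at some members and not at others. Whether the directions are linked was not tested.

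The tested genes outside these lists whose profiles were most like those of DHCR7 and SC5DL were found by the root mean square distance over the 4 libraries, after centring on the control mean. Nearest to DHCR7 were GSN (distance 0.025 on the log2 scale), ALDH3B2 (0.039) and ZNF772 (0.049), of 16851 genes compared. GSN, which encodes the actin-severing protein gelsolin, had log2 values of 8.37 and 8.61 in control and 5.29 and 5.63 in GNA13-deficient libraries. Nearest to SC5DL were GAB1 (0.021), KIAA0564 (0.026) and KLF7 (0.034). GAB1, a signaling adaptor, had values of 13.00 and 12.98 in control and 11.89 and 11.78 in GNA13-deficient libraries. Within a distance of 0.25 there were 96 genes for DHCR7 and 584 for SC5DL, so such profiles were more common at the size of the SC5DL difference.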

How the data were processed

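Poly(A)-selected stranded RNA libraries of NUDUL1 cells were sequenced, and the authors used STAR for alignment to hg19 and deposited normalized log2 values per gene; the submitters' processing notes also name HTSeq, and the annotation and the method of normalization are not given in the sources used here. A row of total mapped reads on a linear scale was deposited above the genes and used only for depth. On the linear scale every value up to 100 reads was within 0.1 read of a whole count (100% of such values per library), and reads quoted were recovered by that step; values are as deposited otherwise, so scaling between libraries is the authors'.

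Genes with a value over 0, the lowest listed, in 2 or more libraries were fitted by genotype with limma 3.58.1 in R 4.3.3 (lmFit, then eBayes with a trend of variance on mean), leaving 2 residual degrees of freedom. Benjamini-Hochberg adjustment covered all 16945 genes, and the threshold was 0.05. An exact permutation test of 2 against 2 libraries cannot pass this threshold and was not run. No pseudocount was added, and precision is lowest for genes of few reads.

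The members and the lists were chosen with earlier results of these data known. Named genes were the members, GNA13, the other late enzymes, the 3 largest called changes of each further list, SREBF1, SREBF2, INSIG1 and SQLE, the neighbours of DHCR7 and SC5DL, other neighbours called with a difference of 1 or more, and the 3 nearest profiles of DHCR7 and SC5DL; MBTPS1, GGPS1, SOAT1, GPR183, CH25H, CYP7B1, CETN2 and the genes of the 1 Mb window were chosen after their values were seen. Table rows were matched to GENCODE through Entrez IDs (20432 of 25066), and lengths are of the canonical transcript. Promoters were read from RefSeq and motifs searched with Python 3.11.15. Some genes of the lists are counted but not reported here by name. A planned comparison of protein sequences was not run.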

Additional observations from a re-analysis of the deposited data

How the results depend on the processing

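The count of 5037 genes called fell to 1999 without the filter on low values and to 2718 without a variance trend; in the same order the calls went from 8 to 4 and 4 for SREBP control and targets, from 6 to 2 and 2 for sterol fates and export, and from 13 (TECTA and DDR2 counted) to 5 and 8 for the neighbours. The cause was not tested. Calls in the mevalonate list and in the other late enzymes stayed within 1.5 times under these settings, a filter at the median, pseudocounts of 1 and 10, quantile normalization, median centring, the block and voom weights on whole reads. With 1 library left out, a genotype has a lone library that is assumed to vary like the other genotype, 1 residual degree of freedom remains, and limma called 0 genes in all of these fits and lists (range 0 to 0, with 5257 to 5600 genes at an unadjusted p under 0.05), which says nothing about stability. Median centring gave 69.14% of its 6235 calls as higher, against 44.03% as deposited, moved the median of all genes to 0.18 and the median of the members to 0.52. Without one library, the median of the members ranged from 0.26 to 0.35. No difference of a member reversed; 12 of 64 values for single members moved by more than the spread between replicates, all under quantile normalization or median centring. The replicate number is shared between genotypes but no source pairs the libraries; with the replicate block 6616 genes were called, EBPL among them as lower, and deviations of same-numbered libraries correlated at 0.453 over 8473 genes, which are not independent.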
